A study of Mus musculus with 2 samples.

Results

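Kinesins are motor proteins that walk along microtubules or take them apart at their ends, tubulins are the subunits from which microtubules are built, and stathmins are small proteins that bind free tubulin and keep it out of the polymer. A gene was counted here if its symbol in the platform annotation was that of a kinesin heavy chain (Kif and Kifc), a kinesin light chain (Klc), an alpha, beta, gamma or epsilon tubulin (including the proteins of the gamma tubulin complex) or a stathmin, and if a probe set was paired with that gene alone. This gave 53 of the 12393 genes on the array, read by 108 probe sets, and each gene was read from its brightest probe set, by the mean of the log2 signals of both arrays. They comprised 28 kinesin heavy chain genes, 3 light chain genes, 13 tubulin genes, 1 tubulin pseudogene, 4 genes of the gamma tubulin complex and 4 stathmin genes. Membership follows from the gene name; the roles within the families were assigned with earlier results of these data known.

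RNA came from epithelium separated from the uteri of pregnant mice on the morning of day 4, when the luminal epithelium is about to meet the embryo. The array of the group labelled Stat3 knockout was set against the array of the group labelled control. Each array read RNA pooled from 3 animals or preparations, and both sample titles, that of the knockout array included, name Stat3 flox control mice, so the groups rest on the genotype label alone. The Cre line is not given in the sources used here. Neither age nor strain of the mice is given either.

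Microtubules serve a dividing cell and a resting cell in different ways. In mitosis a set of kinesins separates the spindle poles, aligns and pulls chromosomes and organises the central spindle at which the cell is cut apart, and most of these motors are made mainly in cycling cells, late in the cycle. In an epithelial cell between divisions, other kinesins carry vesicles, endosomes, mitochondria and ciliary cargo along stable apicobasal microtubules. Genes of the mitotic motors commonly carry in their promoters a CHR element, the letters TTTGAA, bound by the MuvB core of the DREAM and B-MYB complexes, often with CCAAT boxes bound by the factor NF-Y.

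The sequences below mark where these letters stand, or are absent, before some mitotic and transport kinesin genes and a beta tubulin gene. They are the 120 bases before the annotated start site, read 5′ to 3′ on the strand of the gene, from RefSeq on GRCm38.p6. Capitals mark TTTGAA or CCAAT on either strand, so that TTCAAA and ATTGG are the same motifs read on the other strand. The first 3 belong to mitotic kinesins, the next 2 to the transport kinesins with the lowest and the highest ratio, and the last to the beta tubulin gene with the most CCAAT matches. Kif18a, the mitotic kinesin whose window held neither motif, is not printed. Capitals show letters and not binding.
Kif11, chr19:37376262-37376381, plus strand: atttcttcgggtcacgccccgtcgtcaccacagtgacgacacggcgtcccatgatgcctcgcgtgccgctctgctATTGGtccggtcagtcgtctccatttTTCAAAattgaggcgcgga
Kif22, chr7:127042421-127042540, minus strand: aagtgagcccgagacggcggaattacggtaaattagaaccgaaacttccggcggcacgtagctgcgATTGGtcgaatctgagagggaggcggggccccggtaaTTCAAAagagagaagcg
Kif2c, chr4:117178773-117178892, minus strand: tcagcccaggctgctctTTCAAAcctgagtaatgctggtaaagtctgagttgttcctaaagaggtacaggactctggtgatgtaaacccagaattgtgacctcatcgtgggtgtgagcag
Kif5c, chr2:49619166-49619285, plus strand: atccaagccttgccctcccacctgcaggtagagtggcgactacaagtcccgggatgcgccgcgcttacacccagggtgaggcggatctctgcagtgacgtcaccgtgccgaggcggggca
Kif3c, chr12:3365012-3365131, plus strand: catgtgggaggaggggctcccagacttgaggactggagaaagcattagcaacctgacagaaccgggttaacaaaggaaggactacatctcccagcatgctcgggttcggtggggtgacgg
Tubb4b, chr2:25224703-25224822, minus strand: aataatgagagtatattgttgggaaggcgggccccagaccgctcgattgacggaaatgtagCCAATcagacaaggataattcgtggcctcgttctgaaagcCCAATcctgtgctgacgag

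Values are MAS5 signals, the brightness of a probe set after background correction, in arbitrary units on a linear scale. A floor of 14.0, the 40th percentile of the signals outside control probe sets, replaced every lower signal. A gene under it on both arrays has no ratio, and a gene under it on 1 array has a ratio that is a bound, written "at least". Ratios are knockout over control, and genes were counted at 2-fold. The number of arrays limits the precision. As each group has a lone array, there is no replicate check and no test, and the only error measured is that log2 ratios of probe sets of the same gene differed with an SD of 0.31 (2853 genes), which covers neither animals nor arrays. Stat3 itself had 186 in the knockout and 582 in the control by probe set 1460700_at, and 160.0 and 430.0 by 1426587_a_at, so the array labelled knockout had the lower signal; whether these probe sets lie in the deleted part was not determined. Of the 8 epithelial markers listed, the 7 on the array had signals of 2335 to 4944 in the knockout and 2275 to 4220 in the control.

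Of the 53 members, 37 passed the floor on 1 array or both, and 16 did on neither. Of the 37, 15 were lower in the knockout by 2-fold or more, 3 were higher by 2-fold or more, 16 lay within 2-fold and 3 (Kif13a, Tubb6 and Stmn2) had a bound short of 2-fold. Over all 8304 genes with a ratio, 9.92% were lower and 7.37% higher by that limit, and the median log2 ratio was 0.05. The median over the 37 members was -0.41. Without the mitotic kinesins, 7 of 29 were lower and 3 higher, with a median of -0.01.

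**Figure D1:**
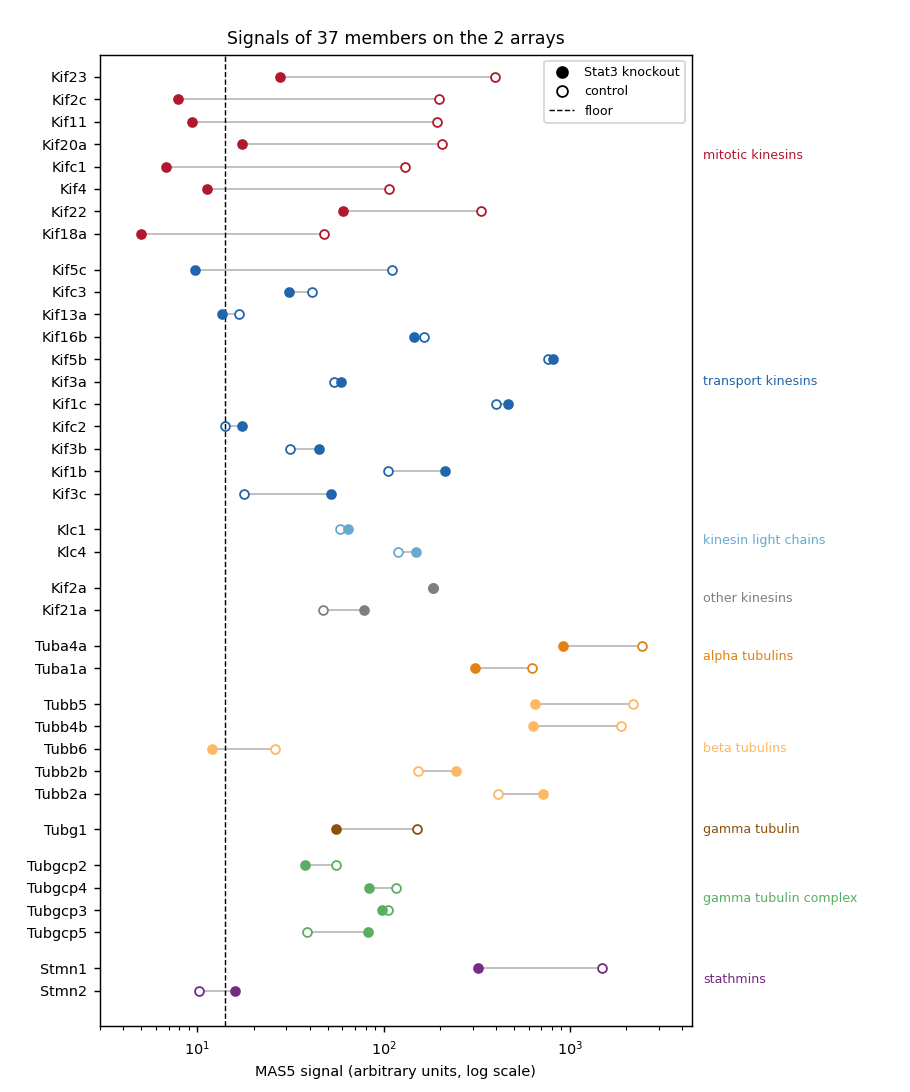
MAS5 signals (arbitrary units, log axis) of the 37 members with a ratio, grouped by role. Filled points are the Stat3 knockout array, open points the control array, and the dashed line is the floor of 14.0. All 8 mitotic kinesins sit far left of their control point, while most transport kinesins lie beside theirs. The control point of Kif2a, at 184, is hidden behind the knockout point at 183.

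The mitotic kinesins were lower in the knockout throughout. All 8 with a ratio, of 9 on the array, were lower by 2-fold or more. Their median log2 ratio was -3.39, or 10.5-fold lower. Because 5 of the 8 were under the floor in the knockout, this median rests in part on bounds. Among 4509 genes with a control signal in the same range, 47.8 to 395, 11.6% were lower by 2-fold or more. The count of mitotic kinesins rests on roles assigned with earlier results of these data known. Kif2a, which acts at spindle poles as well as in neurons, was placed outside the group. It had 183 in the knockout and 184 in the control.

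The central spindle motors were lower. Kif23 (gene ID 71819), the motor of the centralspindlin complex that marks the plane of cytokinesis, had a signal of 27.9 in the knockout and 395 in the control. That was 14.2-fold lower and left 7.05% of the control signal. At least 0.470% of all genes with a ratio had one as low. This share is a minimum, as 410 genes under the floor in the knockout alone entered it at their bounds. The log2 ratio of Kif23 was -3.83 by this probe set. With the floor at the 60th percentile it was -2.62 and with the mean of its probe sets -1.47, both bounds. Kif20a, which takes the chromosomal passenger complex to the central spindle, had 17.3 in the knockout and 206 in the control, or 11.9-fold lower. Kif4, a chromosome-bound motor that also sets the length of the central spindle, had 11.3 in the knockout and 106 in the control, or at least 7.56-fold lower. With the floor at the 60th percentile the bound for Kif4 fell inside 2-fold (log2 ratio -0.72).

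Motors of the spindle poles and of spindle length were lower as well. Kif11, also known as Eg5, slides antiparallel microtubules apart to separate the poles. Its signal was 9.39 in the knockout and 192 in the control, or at least 13.7-fold lower. Kifc1 walks to the minus end and bundles microtubules at the poles. It had 6.76 in the knockout and 129.7 in the control, or at least 9.24-fold lower, by a probe set whose name ends in _s_at and that may read related transcripts. Its close relative Kifc5b had 5.08 and 10.4, under the floor on both arrays, and is the mitotic kinesin without a ratio.

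The motors that act on chromosomes and their attachments completed the group. Kif2c (MCAK) takes microtubule ends apart and so releases wrongly attached kinetochores. It had 7.88 in the knockout and 198 in the control, or at least 14.1-fold lower, by a probe set ending in _x_at. Averaging its 4 probe sets, 2 of them under the floor on both arrays, gave a log2 ratio of -0.66, a bound. Kif22 (Kid), which pushes chromosome arms away from the poles, had 60.4 in the knockout and 335 in the control, or 5.54-fold lower. This brightest probe set ends in _x_at, may read related transcripts, and kept 18.05% of the control signal. That was the highest share of the 3 mitotic kinesins whose brightest probe set was over the floor on both arrays. The other Kif22 probe sets were under the floor in the knockout. Kif18a, which damps the movement of aligned chromosomes, had 4.96 in the knockout and 47.8 in the control; the fold of at least 3.41 is capped by its low control signal.

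Other probe sets of the mitotic kinesins had the same direction. Of the 4 genes with a further measured probe set, Kif22 had 11.02 in the knockout and 235 in the control by 1451128_s_at, at least 16.7-fold lower, and 9.36 and 87.2 by 1423813_at. For Kif11, 1452314_at had 5.44 and 134, and 1452315_at, dim in the control, had 6.48 and 18.1, a bound short of 2-fold (log2 ratio -0.37). For Kif2c, 1449060_at had 8.87 and 58.8, and for Kif23, 1453748_a_at had 4.74 and 45.2. In all 6 of these probe sets the knockout was under the floor and lower than the control. The sizes moved with the settings. The floor at the 60th percentile lay above the knockout signal of every mitotic kinesin, so log2 ratios there are bounds. They were -1.58 for Kif11, -1.68 for Kif20a, -1.62 for Kif2c and -1.01 for Kifc1. With the mean of all probe sets the log2 ratio was -2.46 for Kif11, a bound, and -3.37 for Kif22.

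**Figure D2:**
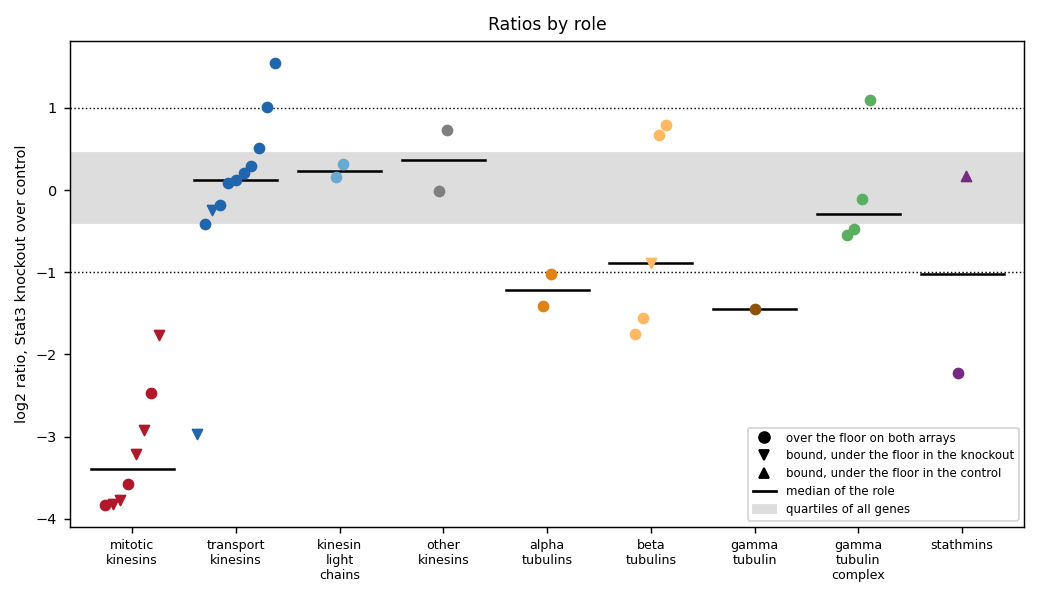
Log2 ratio of Stat3 knockout over control for each member with a ratio, by role. Circles were over the floor on both arrays and triangles are bounds, black bars are medians, dotted lines mark 2-fold and the grey band spans the quartiles of all genes (-0.40 to 0.46). The mitotic kinesins lie at -1.77 or lower, and 10 of 11 transport kinesins lie at -0.41 or higher.

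The transport kinesins showed no such shift. Of 11 with a ratio, of 14 on the array, 1 was lower and 2 were higher by 2-fold or more, and the median log2 ratio was 0.13. Across all genes with a ratio, 9.92% were lower and 7.37% higher, with a median of 0.05. The medians of mitotic and transport kinesins differed by -3.52 on the log2 scale. The ranges of both groups overlapped through Kif5c alone; without it the lowest transport kinesin was at -0.41 and the highest mitotic kinesin at -1.77.

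The transport motors used by most cell types differed little between the arrays. Kif5b, the widely expressed heavy chain of conventional kinesin, had 807 in the knockout and 759 in the control (log2 ratio 0.09), and its 4 other probe sets lay between -0.06 and 0.59. Kif1c, which carries vesicles and mRNA, had 462 in the knockout and 399 in the control (0.21). Kif16b, which moves early endosomes, had 145.0 in the knockout and 164 in the control (-0.18). Kif3a and Kif3b, partners in the motor that builds cilia and carries other cargo, had 58.9 and 44.7 in the knockout, against 53.9 and 31.3 in the control. None of these passed 2-fold. The others short of 2-fold were Kifc3, a minus-end motor known from apical transport in epithelia (30.8 in the knockout, 41.0 in the control), the endosomal motor Kif13a (at -0.25, a bound) and Kifc2 (0.30).

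Kif5c was the exception among the transport motors. It encodes the conventional kinesin heavy chain known mainly from neurons, and had 9.69 in the knockout and 110.2 in the control, at least 7.85-fold lower by 1422945_a_at. The other probe set, 1450804_at, had 4.96 in the knockout and 21.5 in the control, a bound of -0.61, short of 2-fold, and the call was also lost with the floor at the 60th percentile. The 8 neuronal markers listed (Snap25, Syt1, Nefl, Nefm, Gap43, Rbfox3, Syn1 and Elavl4) were all under the floor on both arrays, with summed signals of 21.6 in the knockout and 19.98 in the control.

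Kif3c and Kif1b were higher by 2-fold or more in the knockout. Kif3c, which pairs with Kif3b in place of Kif3a, had 52.1 in the knockout and 17.8 in the control, or 2.93-fold higher, close above the floor in the control. Kif1b, a motor for mitochondria and vesicles, had 213 in the knockout and 105.0 in the control, or 2.02-fold higher, just past the limit. Its probe set 1451200_at had 157 and 73.2 (2.15-fold higher) and 1423995_at 24.9 and 16.6 (log2 ratio 0.59), whereas 1455182_at had 25.8 and 32.7 (-0.35). The call for Kif1b was lost with loess scaling (0.96), with the floor value added to both signals (0.93) and with the mean of its probe sets (0.11).

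The neuron-related motors Kif1a and Kif5a and the dendritic and ciliary motor Kif17 were under the floor on both arrays. Of the light chains, which bind the cargo of conventional kinesin, Klc1 had 64.5 in the knockout and 57.9 in the control, Klc4 had 149.2 and 119, and Klc3 was under the floor on both arrays. The light chains thus stayed within 2-fold like Kif5b. Of 5 kinesins outside both roles, Kif2a, a relative of Kif2c that takes microtubule ends apart in neurons as well as at spindle poles, had 183 in the knockout and 184 in the control. A dimmer Kif2a probe set, 1454107_a_at, had 26.9 and 14.7 (0.88). Kif21a, which limits microtubule growth at the cell cortex, had 78.3 in the knockout and 47.0 in the control (0.74), and Kif9, Kif12 and Kif21b were under the floor on both arrays. The sign for Kif2a turned under centring and quantile scaling, so no direction is given for it.

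**Figure D3:**
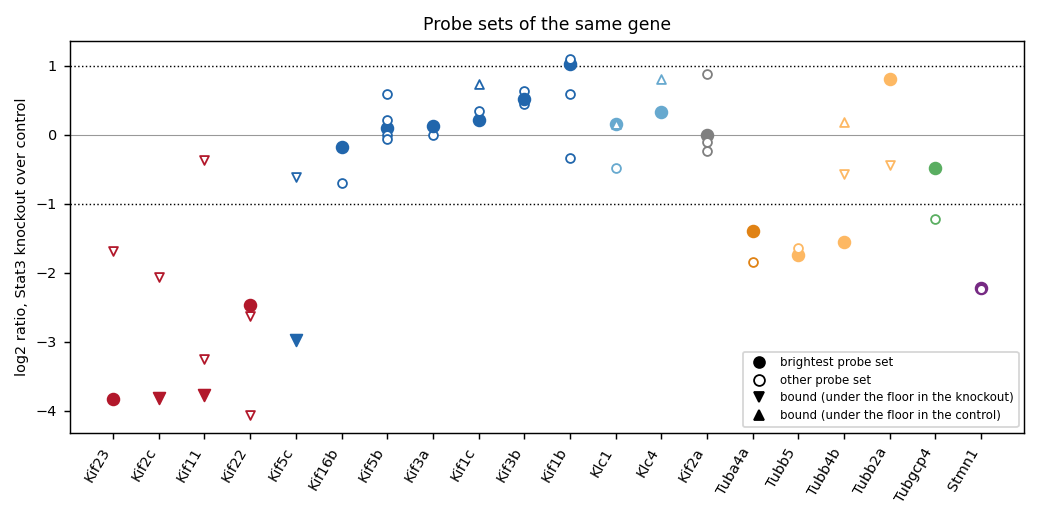
Log2 ratio of Stat3 knockout over control for every measured probe set of the members that have more than 1. Filled points are the brightest probe set of each gene, open points the others, triangles are bounds, and dotted lines mark 2-fold. Probe sets of Kif5b and Stmn1 lie close together, while Kif11, Kif5c, Tubb4b and Tubb2a have dim ones far from the brightest.

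The tubulin genes differed by isotype. Of 8 with a ratio, of 13 on the array, 5 were lower in the knockout by 2-fold or more, 0 were higher by as much, 2 lay within 2-fold and 1, Tubb6, had a bound short of it. The shares over all genes with a ratio were 9.92% lower and 7.37% higher. The median log2 ratio of the tubulins was -1.22. The beta tubulin gene Tubb5, a broadly made isotype, had 653 in the knockout and 2191 in the control, or 3.36-fold lower, and 327 and 1027 by 1455719_at. Tubb4b, a widely made isotype also used in cilia, had 635 in the knockout and 1872 in the control, or 2.95-fold lower. Among the other Tubb4b probe sets, 2 were near the floor, with 6.28 and 20.9 (-0.57, a bound) and with 15.9 and 9.02 (0.18, a bound). The brightest probe sets of both thus kept similar shares of the control signal, 29.8% for Tubb5 and 33.9% for Tubb4b.

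The beta tubulin genes Tubb2a and Tubb2b had ratios above 0 by their brightest probe sets. Tubb2a had 718 in the knockout and 413 in the control (log2 ratio 0.80), and Tubb2b 244 and 153 (0.67), both within 2-fold; a dim Tubb2a probe set had 13.4 and 19.1 (-0.44, a bound), and that is the value when probe sets shared between transcripts are left out. Tubb6 had 12.0 in the knockout and 25.9 in the control, a bound of -0.89. With the floor at the 20th percentile or with none, Tubb6 passed 2-fold (-1.11). The neuronal isotype Tubb3 and the brain isotype Tubb4a were under the floor on both arrays, beside the neuronal markers given above. The pseudogene Tubb2a-ps2 was under it as well.

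Of the alpha tubulins, Tuba4a had 918 in the knockout and 2430 in the control, or 2.65-fold lower, and 248 and 890.2 by 1417374_at. Tuba1a, known for its role in neurons of the developing brain, had 309 in the knockout and 629 in the control, or 2.04-fold lower, by a probe set ending in _x_at that may read other alpha tubulins. This call was lost when each array was centred on its median (log2 ratio -0.96) and with the floor value added to both signals (-0.99). Tuba3b and Tuba8 were under the floor on both arrays. Isotype genes are close in sequence, and 6 of the 7 probe sets left out because they are paired with several genes, at least 1 of them a member of these families, had a ratio: 5 were under 0 and 1 above, from -1.30 to 0.88. Over all genes with a ratio, 3873 of 8304 were under 0.

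Gamma tubulin nucleates microtubules at the centrosome, where the proteins of the gamma tubulin complex hold it in a ring. Tubg1, its main gene, had 55.3 in the knockout and 150.7 in the control, or 2.73-fold lower. It was lower by 2-fold or more under all 9 other scalings, floors and choices of probe set, with log2 ratios of -1.54 to -1.23. Some of these could not change its ratio of -1.45. Tubg1 has 1 probe set, over the floor on both arrays, so the choice of probe set and a lower floor or none left it as it was. Tubg2, the brain-enriched copy, was under the floor. Of the ring proteins, Tubgcp2 had 38.0 in the knockout and 55.6 in the control, Tubgcp3 97.6 and 104.9, and Tubgcp4 83.6 and 117, all within 2-fold. A dimmer Tubgcp4 probe set had 21.4 and 49.8 (-1.22). Tubgcp5 was 2.14-fold higher, with 82.6 in the knockout and 38.6 in the control, a call lost with loess scaling, with the floor at the 60th percentile and with the floor value added.

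Among the stathmins, Stmn1 was lower and the neuronal relatives were dim. Stmn1, the stathmin of proliferating cells, had 319 in the knockout and 1488 in the control, or 4.66-fold lower. A second probe set, 1448113_at, had 23.9 and 112 and nearly the same log2 ratio (-2.23, against -2.22). Stmn2 had 15.9 in the knockout and 10.2 in the control (a bound of 0.18), and Stmn3 and Stmn4 were under the floor on both arrays.

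Markers of cycling cells moved with the mitotic kinesins, Stmn1 and the lower tubulins. All 7 of them on the array (Mki67, Cdk1, Rrm2, Ccna2, Top2a, Mcm5 and Pcna, of 8 listed) were lower by 2-fold or more, against 9.92% of all genes with a ratio. The median log2 ratio of these 7 markers was -4.68, with summed signals of 967 in the knockout and 6802 in the control. In RNA of whole tissue fractions, fewer cells of a type and less RNA per cell cannot be told apart. Markers of other cell types summed to 3542 in the knockout and 2566 in the control for stroma (8 genes, Hand2 under the floor on both arrays), to 825 and 647 for leukocytes (8 genes, 7 with a ratio above 0, median log2 ratio 0.72), to 63.9 and 71.7 for vessels (6 genes, 4 under the floor, Pecam1 among them), to 103 and 146 for smooth muscle (6 genes, 4 under the floor, Myh11 among them) and to 54.7 and 38.2 for ciliated cells (6 genes of 10 listed, 5 under the floor, Foxj1 among them). Of these 34 genes, only C1qa passed 2-fold. Over all genes with a ratio, 4431 of 8304 were above 0. The part of cell composition in the member ratios was not tested.

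**Figure D4:**
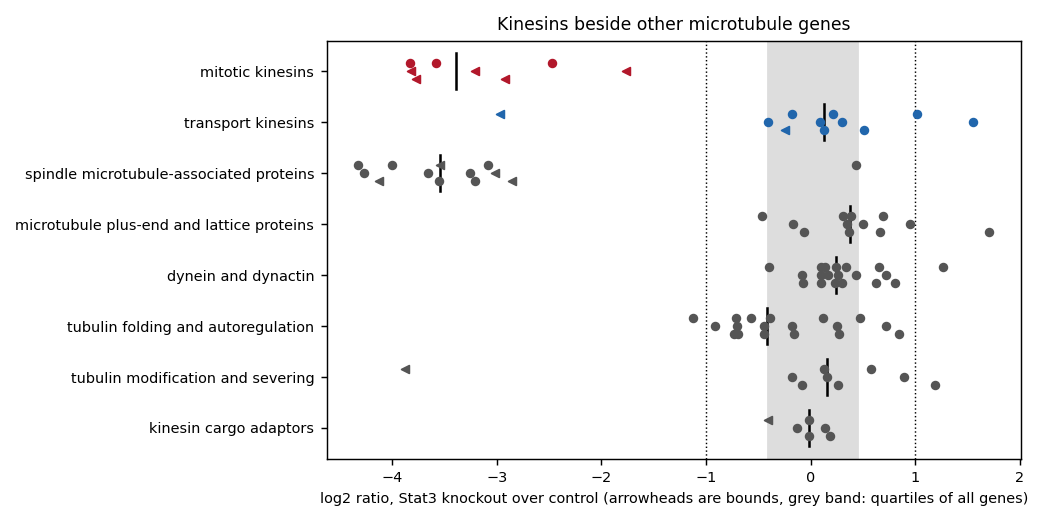
Log2 ratio of Stat3 knockout over control for mitotic and transport kinesins (upper 2 rows) and 6 lists of other microtubule genes. Each point is a gene, arrowheads are bounds, black bars are medians, dotted lines mark 2-fold and the grey band spans the quartiles of all genes. Spindle proteins lie with the mitotic kinesins, and dynein, dynactin and cargo adaptor genes lie around 0 with the transport kinesins.

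The partners of the mitotic kinesins had the same direction. Of 13 spindle microtubule-associated and central spindle genes, 12 were lower by 2-fold or more and 0 were higher by as much. Over all genes with a ratio, the background for the lists below as well, 9.92% were lower and 7.37% higher. The median log2 ratio of this list was -3.54. Cep55, which recruits the machinery that severs the bridge between daughter cells, had 18.3 in the knockout and 366 in the control (log2 ratio -4.32). Nusap1, a spindle assembly protein, had 27.5 and 530.3 (19.3-fold lower), Tpx2, which activates Aurora A on the spindle, 11.6 and 246 (at least 17.5-fold lower), and Prc1, which bundles the midzone and binds Kif4, 24.5 and 393 (16.02-fold lower). Racgap1, the partner of Kif23 in centralspindlin, was 9.57-fold lower, and the kinetochore kinesin Cenpe, named outside the Kif series, at least 7.25-fold lower. Numa1, a spindle pole protein that is part of the nucleus between divisions, was the exception, with 466 in the knockout and 346 in the control. Racgap1 and Cenpe, and below Kifap3, Ttc5 and the chaperonin and cofactor genes beyond Cct3, are named for their link to members, after their values were seen.

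Genes of microtubule transport other than kinesins did not show this direction. Of 19 dynein and dynactin genes, which form the minus-end transport motor, 18 lay within 2-fold and Dync1i1, a dynein intermediate chain, was 2.40-fold higher (984 in the knockout, 410 in the control), with a median of 0.24. The dynein light chains Dynll1 and Dynlrb1, the brightest within the limit, had 2678 and 831 in the knockout, against 3524 and 874 in the control. None of the 6 measured kinesin cargo adaptors passed 2-fold (median -0.01, with 1 bound), among them Ift20, with 233 in the knockout and 235 in the control, and Kifap3, the subunit that joins Kif3a and Kif3b to cargo, with 126 and 110.6. Of 12 plus-end and lattice proteins, Map1b was 3.26-fold higher (78.4 and 24.1) and 11 lay within 2-fold, with a median of 0.37. The plus-end binder Mapre1, the brightest of these, had 1294 in the knockout and 1352 in the control.

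Of 18 tubulin folding genes, only Cct3, a subunit of the chaperonin that folds tubulin and actin, passed 2-fold (2.18-fold lower, 669.9 in the knockout and 1458 in the control), and 12 of 18 ratios were under 0, with a median of -0.42. All 8 chaperonin subunits listed were under 0, from -0.39 for Cct4 to -1.12 for Cct3. Over all 8304 genes with a ratio, 3873 were under 0 and 4431 above. The tubulin cofactors were mixed. Tbcb, Tbcc, Tbcd and Tbce were above 0, while Tbca, the brightest cofactor, was under 0 with 1678 in the knockout and 1878 in the control (-0.16). Ttc5, which starts the decay of tubulin mRNA when free tubulin is abundant, had 173 in the knockout and 160.0 in the control (0.12). Of 9 tubulin modifying and severing genes, Fignl1, an AAA ATPase also known from DNA repair, was at least 14.7-fold lower and Ttll1, a tubulin polyglutamylase, 2.28-fold higher.

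The letters of the CHR element were found mostly in promoters of the mitotic kinesins, a property that the choice of members did not use. RefSeq promoter windows, 250 bases before and 50 from the start site on, were at hand for 39 members. TTTGAA, searched on both strands, was in the windows of 7 of 8 mitotic kinesins, against 1 of 10 transport kinesins (Kif1a, not over the floor). It was in 17.9% of all 32851 windows and, counted by gene as for the members, in 20.2% of all 27025 genes with a window. Among genes with a ratio and a window, it was in 6 of 7 mitotic kinesins, 0 of 8 transport kinesins and 13.7% of all 6786. CCAAT, searched alike, was in 6 of 8 mitotic and 3 of 10 transport kinesins and in 37.4% of all windows (41.1% by gene). Both motifs stood in 6 of 8 mitotic kinesin genes, 0 of 10 transport kinesin genes and 6.95% of all windows (7.97% by gene). Among genes with a ratio and a window, the shares were 5 of 7, 0 of 8 and 5.54%. Kifc1 and its close relative Kifc5b are counted separately, and in each the nearest CCAAT match upstream began 46 bases before TTTGAA. In no member did matches of both motifs share bases.

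The matches of the mitotic kinesins lay at different distances from the start site. Positions count from the start site of each window, which in the first window equalled the annotated gene start in 19 of 39 members. TTTGAA began at position -19 in Kif11, -215 and -17 in Kif22, 2 in Kifc1, 3 in Kif23, 20 in Kif4 and 30 in Kifc5b, where 1 is the start site of the window, and at -103 in Kif2c. The nearest CCAAT match began 26 bases before it in Kif11 and 37 bases before the match at -17 in Kif22, both in the printed stretches. CCAAT matches farther out began at -233 in Kif22 and -152 in Kif4. Kif18a held neither motif, and neither did the transport motors Kif5c and Kif3c, nor Kif2a, which was placed outside both roles. Among the tubulins, Tubb4b held 5 CCAAT matches, Tubb5 had 2 and Tuba1a had 1, all lower in the knockout. Tuba3b and Tubb3 held CCAAT as well but had no ratio. CCAAT was thus in 5 of 10 tubulin genes with a window, near the 43.1% of all genes with a ratio and a window. Tuba4a, also lower, held neither motif, and neither did Tubb2a. TTTGAA was in 2 of 10 tubulin genes with a window, Tubb4b and Tuba3b. These matches are descriptions of letters and not of binding.

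**Figure D5:**
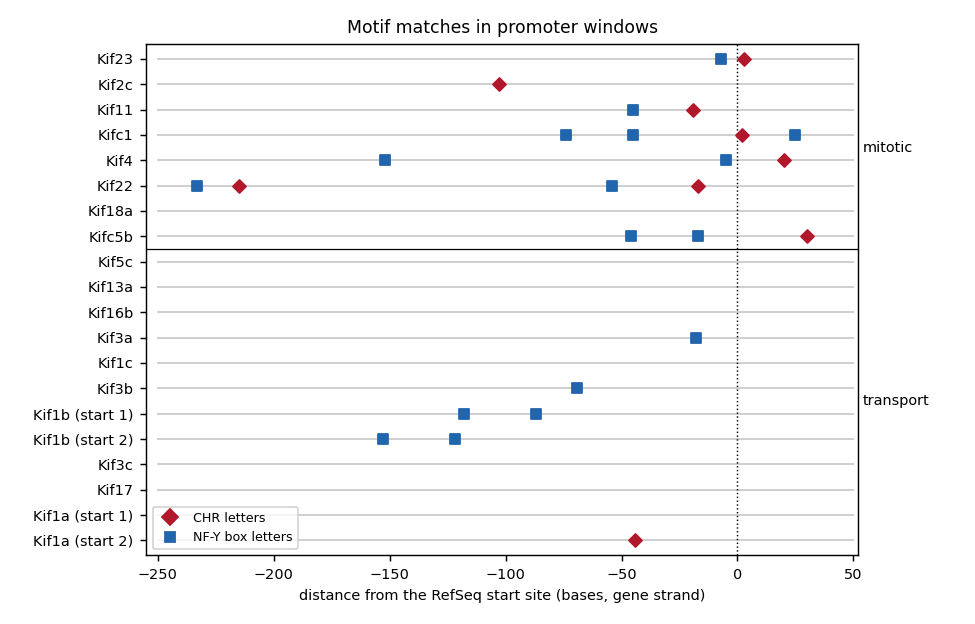
Positions of CHR and NF-Y box letters (horizontal axis, bases from the RefSeq start site on the strand of the gene) in the promoter windows of 8 mitotic and 10 transport kinesins, with 2 windows each for Kif1b and Kif1a. Diamonds are CHR matches and squares NF-Y box matches on either strand. Diamonds stand in 7 of 8 mitotic kinesins and in 1 transport kinesin.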

How the data were processed

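The authors deposited 1 MAS5 signal intensity per probe set and array, on a linear scale, made with MAS5 in Affymetrix Expression Console 1.1 per the submitters' processing notes. Per the labels' protocols, each labelling started from 100 ng of RNA. Both samples carry the same title, so groups were taken from the genotype labels; the extraction text names human stromal cells and the collection text day 4 or 5, against mouse epithelium and day 4 elsewhere.

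Of 22690 probe sets, 20380 were paired with 1 gene in the platform annotation. All 53 members had their gene ID in the RefSeq table (GRCm38.p6). Ratios and counts were computed in Python 3.11.15 with pandas 2.3.3 and numpy 2.4.6 and checked on simulated arrays with planted changes. Members, roles and lists were chosen with earlier results of these data known. Members past 2-fold and the brightest others of each role were named, and from each further list up to 4 genes past 2-fold and 2 others. No test was possible with 1 array per group. Alternatives changed the scaling between arrays, the floor, the choice of probe set and the fold limit.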

Additional observations from a re-analysis of the deposited data

How the results depend on the processing

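All 8 mitotic kinesins with a ratio were lower by 2-fold or more under each scaling and at each fold limit; 6 of 7 were with the floor at the 60th percentile and 7 of 8 with the mean of all probe sets. The count of all members called lower stayed within 1.5 times of 15 under every alternative, but the members with a ratio and the background moved. It was 12 of 27 with the floor at the 60th percentile, 19 of 53 with no floor, 16 of 37 at 1.5-fold and 11 of 37 at 3-fold. The share of all genes lower was 7.27%, 14.3%, 18.6% and 4.83% under these settings. The size of the mitotic median depended on the floor and the probe sets: it was -1.62 with the floor at the 60th percentile, -2.79 with the floor value added, -2.69 with the mean of all probe sets and -2.78 without shared probe sets, and the difference from the transport median was then -1.71, -2.92, -2.78 and -2.89. With the floor at the 60th percentile every mitotic ratio was a bound, so that median and that difference are bounds too. The tubulin median was -0.54 with the floor at the 20th percentile, -0.28 with the floor value added and -1.03 with no floor. Transport kinesins at least 2-fold higher numbered 1 with the floor at the 60th percentile, the floor value added, loess or the mean of probe sets, 4 with no floor and 0 at 3-fold; those lower numbered 0 with the floor at the 60th percentile or without shared probe sets and 2 with no floor. Tubulins at least 2-fold higher numbered 1 with the floor at the 20th percentile, 3 with no floor and 2 at 1.5-fold, and those lower 1 at 3-fold. All members higher numbered 1 with the floor at the 60th percentile, the floor value added or loess, 9 with no floor, 6 at 1.5-fold and 0 at 3-fold, while the share of all genes higher was 5.61%, 3.46%, 6.16%, 15.5%, 19.4% and 1.72% under these settings. The cause was not tested. No replicate could be left out, and no paired analysis was possible because each group has 1 array. Low control signals limit the folds of Kif18a and Kif4.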

Other observations

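Of the genes with a ratio and a promoter window, 376 held both TTTGAA and CCAAT in a window, of which 21.8% were lower in the knockout by 2-fold or more and 6.65% higher by as much. The share lower was 12.2% of 557 genes with TTTGAA alone, 9.80% of 2470 with CCAAT alone and 8.42% of 3383 with neither. The difference between these shares was not tested. Kif18a, without either motif, was at least 3.41-fold lower, and of the transport motors with CCAAT alone, Kif3a and Kif3b lay within 2-fold and Kif1b was 2.02-fold higher.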
